A study of Mus musculus with 4 samples.

Results

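The genes described here make cholesterol and fatty acids or set the rate at which cells do so. They are 34 of the 46095 gene rows of a bulk RNA sequencing table from the mouse stomach: 16 enzymes of sterol synthesis, 5 genes of sterol sensing and transport, 12 enzymes of fatty acid synthesis, elongation and desaturation, and *Lpin1*, a phosphatidate phosphatase of glycerolipid synthesis. They were picked by name for their place in these pathways, though with earlier results of these data known. All 34 passed the filter on low counts. The table holds 2 WT and 2 *Atp4b-cre; MycOE* stomachs (labelled MYC-KI), all from C57BL/6 mice 12 weeks old. WT stands for *Myc fl/fl* littermates without Cre, so the controls carry the floxed *Myc* allele too. In *Atp4b-cre; MycOE* mice (*Atp4b-cre; Myc fl/+*), the *Atp4b* promoter drives Cre in the parietal cell lineage, and human *c-Myc* is switched on there and nowhere else by design. The series' design text speaks of triplicates, and 2 samples per genotype were analysed here. The sources used here do not say that each sample is a separate animal. The sex-linked counts given below differ between the WT samples and so put them in different animals, but they are alike in the MYC-KI samples, so p-values measure the spread between these samples, which for MYC-KI may be technical.

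Cholesterol is built from acetyl-CoA through mevalonate, farnesyl diphosphate, squalene and lanosterol, and fatty acids are built from acetyl-CoA through malonyl-CoA, with NADPH as the reductant. Sterol regulatory element-binding proteins (SREBPs) switch on both sets of genes: SCAP carries the SREBP precursor to the Golgi for cleavage when sterols are scarce, and INSIG holds the complex in the endoplasmic reticulum when they are plentiful. *Srebf2* is best known for the sterol genes and *Srebf1* for the fatty acid genes. Fat cells and sebaceous glands make much fatty acid, so a piece of stomach with fat attached carries lipogenic transcripts from outside the mucosa.

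In the deposited table the MYC-KI counts stood against the wrong names for most genes, and they were first put in row order against the names sorted by character code. 3109 names (6.74%) keep their row in this step, among them *Cyp51*, *Elovl5* and *Elovl6*. Across genes, which are not independent replicates, r between the genotypes on log counts was 0.524 before and 0.985 after this step, against 0.986 between the WT samples and 0.983 between the MYC-KI samples. At each of the 34 genes, r over the 61 rows around it was higher in the re-sorted register than at any shift of up to 20 rows, with values of 0.947 to 0.991, and the next best shift reached at most 0.857. The samples held 30260305 to 41463647 counts. The mouse *Myc* row stood at 31.6 and 27.2 normalized CPM (CPM is the count scaled to the effective library size) in WT and 21.7 and 24.4 in MYC-KI (log2 fold change -0.35, adjusted p = 0.163 in edgeR's quasi-likelihood test). The transgene is human, and whether its reads fall in that row is not given in the sources used here, so the row does not check the labels. The genotypes parted on parietal cell markers, of which 10 of 10 were called lower in MYC-KI, where 5.08% of all genes tested were. Their summed levels were 14111 and 14250 normalized CPM in WT against 483 and 485. *Cblif*, 1 of the 10, is also on the chief cell list, at 1776 and 1678 normalized CPM in WT. WT replicate 2 carried 17846 counts of *Xist* and 5 of the Y-linked *Ddx3y*, while the other 3 samples carried 85 to 201 counts of *Xist* and 1861 to 2623 of *Ddx3y*, so sex is not balanced between the genotypes.

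Of the 34 genes 3 were called, and these were fatty acid enzymes. Calls needed an adjusted p under 0.05 in edgeR and a change of more than 1.5-fold in either direction. 1 of the 34 genes was called higher in MYC-KI (*Me1*), where 5.65% of the 17643 genes tested were called higher, and 2 were called lower (*Acacb* and *Scd1*), where 5.08% of all genes were. These shares of 2.94% and 5.88% are close to those background values or below them. Both MYC-KI samples lay above both WT samples for 14 genes (41.2%, background 33.3%) and below them for 9 (26.5%, background 31.5%), and the genotypes overlapped for 11. An unadjusted p under 0.05 in edgeR was reached by 14 of the 34 genes, where 34.1% of all genes reached it. The median log2 fold change was 0.09 over the 34 genes and 0.01 over all genes tested.

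**Figure D1:**
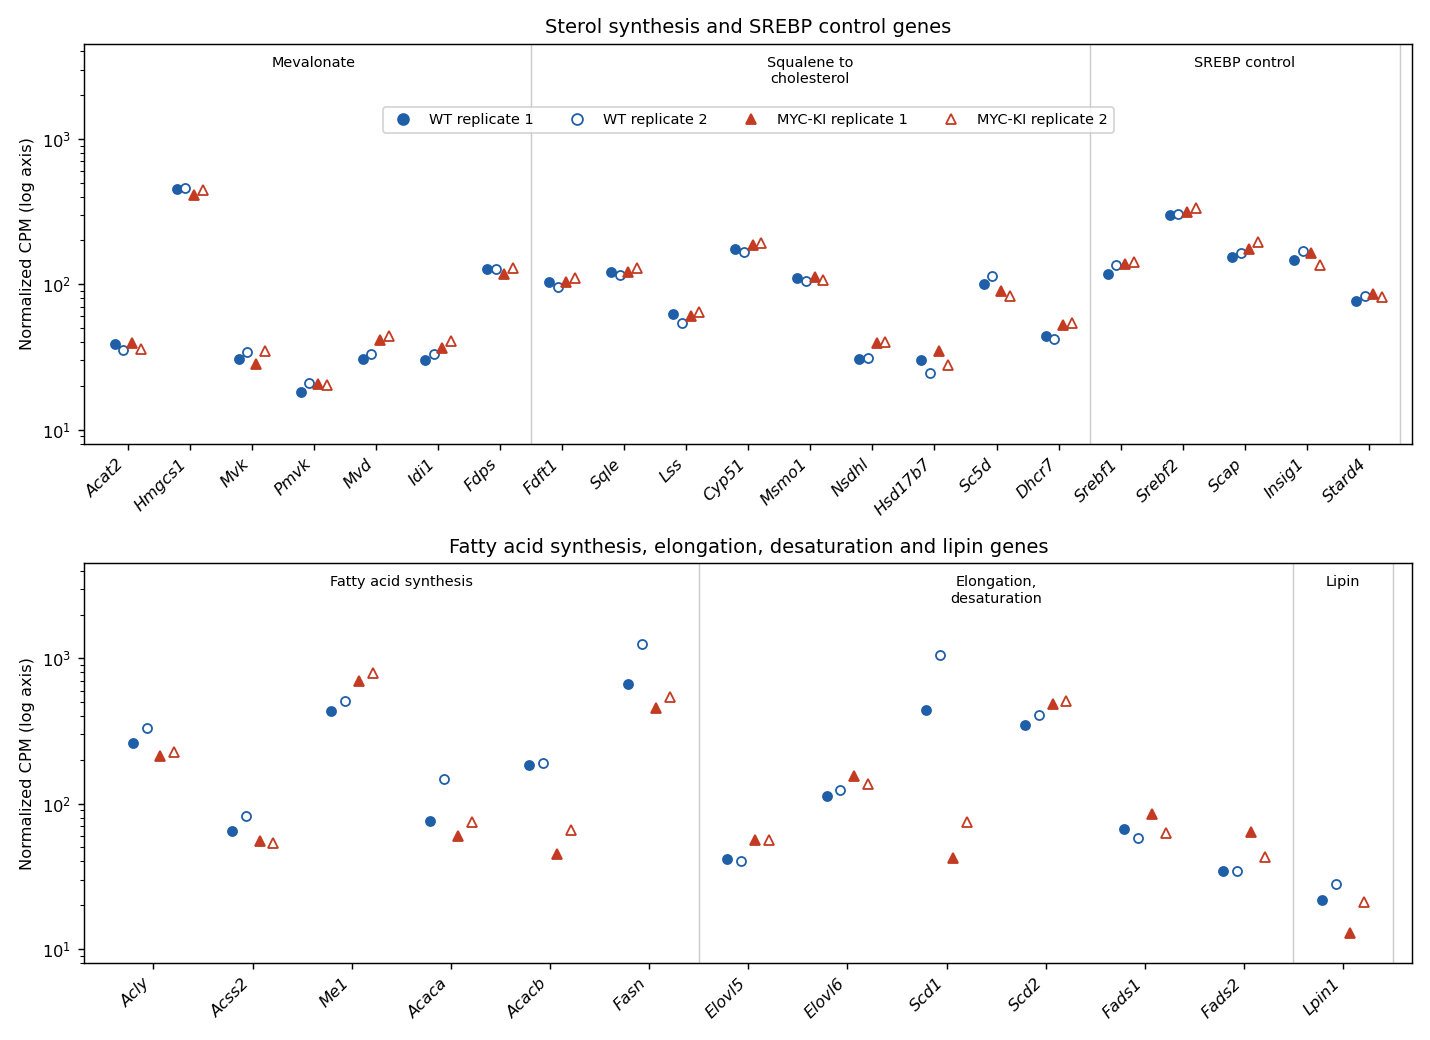
Normalized CPM (log axis) of the 34 genes in each of the 4 samples, by pathway step; circles are WT and triangles MYC-KI. The sterol genes differ by at most 1.34-fold between the genotype means, while *Scd1* and *Acacb* lie lower and *Me1* higher in both MYC-KI samples.

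The sterol synthesis enzymes differed little between MYC-KI and WT stomachs. Summed over the 16 enzymes, the level was 1506 and 1495 normalized CPM in WT and 1496 and 1562 in MYC-KI. The log2 fold changes of single enzymes lay between -0.32 and 0.42 with a median of 0.10. edgeR called none of the 16, with 4 at an unadjusted p under 0.05 (*Mvd*, *Nsdhl*, *Sc5d* and *Dhcr7*), and DESeq2 called none either. These 4 of 16 compare with 34.1% of all genes at that p. Scaling by library size alone, which moved the median of all genes to 0.23, moved the median of the 16 to 0.32, called *Mvd* (0.64, adjusted p = 0.0236 in edgeR) and *Nsdhl* (0.59, adjusted p = 0.0215) higher and put 9 at an unadjusted p under 0.05, while it called 12.9% of all genes higher. With TMM, adjusted p ran from 0.0671 to 0.890.

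In the mevalonate steps, *Hmgcs1*, which joins acetoacetyl-CoA and acetyl-CoA to HMG-CoA, was the most abundant sterol enzyme, and it had the lowest fold change of its group. Its levels were 451 and 462 normalized CPM in WT and 411 and 447 in MYC-KI, a log2 fold change of -0.09 (95% interval -0.33 to 0.15, adjusted p = 0.542 in edgeR), and the sign turned to 0.13 when counts were scaled by library size alone. Both MYC-KI samples lay just under both WT samples. The largest fold change of the group was that of *Mvd*, the decarboxylase that makes isopentenyl diphosphate. *Mvd* stood at 30.4 and 33.3 normalized CPM in WT and at 41 and 44.1 in MYC-KI, a log2 fold change of 0.42 ± 0.10 (SE) with an adjusted p of 0.0706 in edgeR. The MYC-KI samples were both higher without overlap, and the difference did not pass the test in edgeR. In DESeq2 *Mvd* passed the adjusted p (0.0410) and missed the fold threshold, with a log2 fold change of 0.41. *Idi1*, the isomerase of the next step, also lay higher in both MYC-KI samples, at 30.04 and 33.3 against 36.2 and 40.5 (log2 fold change 0.28, adjusted p = 0.182 in edgeR). *Acat2*, *Mvk*, *Pmvk* and *Fdps* overlapped between the genotypes, with log2 fold changes from -0.04 to 0.07.

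From squalene to cholesterol, none of 9 enzymes was called, and the median log2 fold change was 0.11. A positive log2 fold change was seen for 8 of 9, where 50.9% of all genes tested had one. *Nsdhl*, a sterol dehydrogenase that takes part in removing the methyl groups of lanosterol, had the largest one. Its levels were 30.8 and 31.1 normalized CPM in WT and 39.7 and 40.2 in MYC-KI, a log2 fold change of 0.37 ± 0.09 (SE) with an adjusted p of 0.0671 in edgeR. The replicates of each genotype differed by far less than the genotypes did, and the change was a fold of 1.29. *Dhcr7*, the reductase of the last step, stood at 43.8 and 42.0 in WT and at 52.5 and 54.2 in MYC-KI (log2 fold change 0.31 ± 0.08, adjusted p = 0.0757 in edgeR). *Sc5d*, the sterol desaturase that makes the substrate of *Dhcr7*, went the other way, at 101 and 114 in WT and 89.2 and 82.8 in MYC-KI. Its log2 fold change was -0.32 ± 0.10 (SE) with an adjusted p of 0.107 in edgeR, so neighbouring steps of the pathway gave estimates of opposite sign, and neither passed the test. The other members, *Fdft1*, *Sqle*, *Lss*, *Cyp51*, *Msmo1* and *Hsd17b7*, had log2 fold changes from 0.02 to 0.18. For *Sqle*, squalene epoxidase and a rate-limiting step of the branch, the 95% interval of the log2 fold change ran from -0.13 to 0.31.

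None of the 5 genes of SREBP control and sterol transport was called by edgeR or DESeq2, and none had an unadjusted p under 0.05 with either tool. Under scaling by library size alone edgeR again called none, with 4 at an unadjusted p under 0.05 and a median of 0.32 in place of 0.09, beside the shift of 0.23 over all genes. *Srebf2*, the SREBP gene of the sterol branch, stood at 301 and 305 normalized CPM in WT and 313 and 334 in MYC-KI (log2 fold change 0.09, 95% interval -0.13 to 0.32, adjusted p = 0.482 in edgeR). *Srebf1*, that of the fatty acid branch, stood at 117 and 137 in WT and 139 and 141 in MYC-KI (log2 fold change 0.14, 95% interval -0.14 to 0.42, adjusted p = 0.399 in edgeR). For both genes the MYC-KI samples were the higher ones by a margin no wider than the gap between replicates of one genotype. *Scap*, the escort protein of the precursors, stood at 154 and 164 in WT and at 174 and 195 in MYC-KI (log2 fold change 0.21, adjusted p = 0.212 in edgeR). *Insig1*, which retains the complex and is itself an SREBP target, overlapped between the genotypes at 148 and 169 against 164 and 136 (log2 fold change -0.08, adjusted p = 0.729 in edgeR), and scaling by library size alone turned its sign, to 0.15. *Stard4*, a cytosolic sterol carrier, overlapped as well (log2 fold change 0.07). RNA levels do not show how much SREBP was cleaved.

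**Figure D2:**
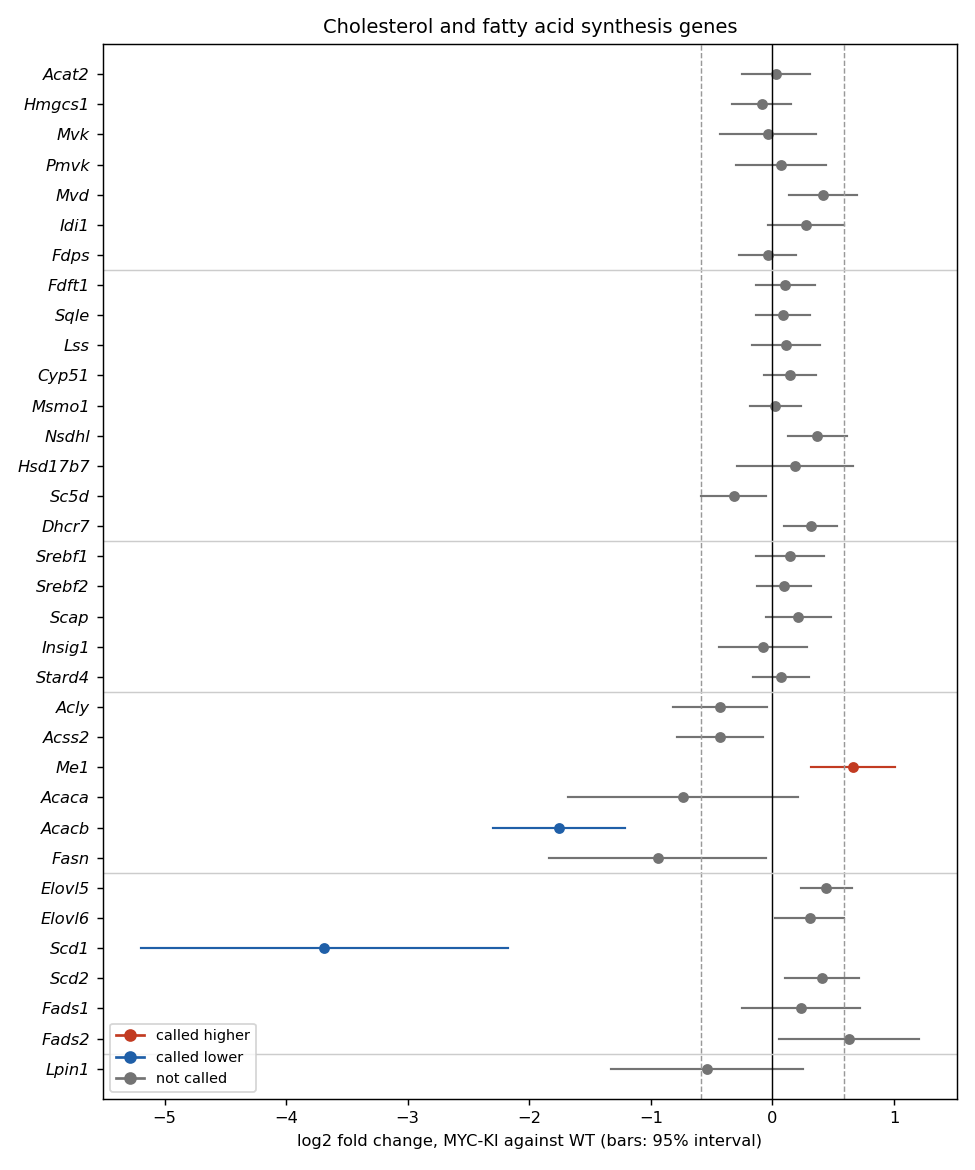
log2 fold change of each gene, MYC-KI against WT, with its 95% interval from edgeR; grey lines part the pathway steps and dashed lines mark a 1.5-fold change in either direction. Sterol and SREBP control genes lie between -0.32 and 0.42, and the fatty acid genes spread from -3.68 to 0.66.

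The fatty acid enzymes spread widely and in both directions. Of the 12, 1 was called higher (8.33%, background 5.65%) and 2 lower (16.7%, background 5.08%) in edgeR, and 10 had an unadjusted p under 0.05 (background 34.1%). The genotypes did not overlap for 11 of them, where 64.9% of all genes did not. Of these, 5 were higher in MYC-KI (41.7%, background 33.3%) and 6 lower (50%, background 31.5%). Of the 6 enzymes that supply acetyl-CoA and NADPH or build the chain, 5 lay lower in both MYC-KI samples (83.3%, background 31.5%). These were *Acly*, *Acss2*, *Acaca*, *Acacb* and *Fasn*, with *Me1* as the exception. Of the 6 elongases and desaturases 5 had a positive log2 fold change (background 50.9%), with *Scd1* as the exception.

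*Scd1*, stearoyl-CoA desaturase, which puts the double bond into stearate and palmitate, had the lowest fold change of the 34 genes. Its counts were 14898 and 29568 in WT and 1444 and 3320 in MYC-KI, or 444 and 1060 against 42.6 and 74.3 normalized CPM. Both MYC-KI samples lay far under both WT samples, and WT replicate 2 lay well above WT replicate 1. The log2 fold change was -3.68 ± 0.56 (SE), a level 12.9-fold lower, with an adjusted p of 0.0323 in edgeR and a 95% interval that reached from -5.19 to -2.18. Without WT replicate 2 the log2 fold change was -2.93, and the call was lost without either WT sample or without MYC-KI replicate 1 (adjusted p = 0.232, 0.196 and 0.0510 in edgeR).

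*Acacb* encodes the acetyl-CoA carboxylase of the mitochondrial surface, whose malonyl-CoA restrains fatty acid oxidation. It stood at 184 and 191 normalized CPM in WT and 45.1 and 65.7 in MYC-KI, and the WT samples, unlike those of *Scd1*, were nearly equal. The log2 fold change was -1.76 ± 0.20 (SE), a level 3.38-fold lower, with an adjusted p of 0.0228 in edgeR. Leaving out a WT sample kept the size (-1.73 without WT replicate 2 and -1.78 without WT replicate 1) and ended the call (adjusted p = 0.232 and 0.197 in edgeR). With 1 WT sample edgeR called no gene of the whole table, so the loss of these calls is not particular to *Acacb* or *Scd1*.

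*Me1*, cytosolic malic enzyme, makes NADPH for lipid synthesis from malate, and it rose. Its counts were 14546 and 14100 in WT and 23540 and 35277 in MYC-KI, or 433 and 505 against 694 and 790 normalized CPM. Both MYC-KI samples were higher than both WT samples, with a log2 fold change of 0.66 ± 0.13 (SE), a fold of 1.58, and an adjusted p of 0.0462 in edgeR. This call was close to both thresholds, and it was lost without MYC-KI replicate 2 (log2 fold change 0.56, adjusted p = 0.0623 in edgeR) and without either WT sample (0.55 and 0.77, adjusted p = 0.245 and 0.239). *Me1* shares 28.3% of its exon sequence, counted as 50-base words, with other genes, most with *Gm7049*, whose counts were 34 and 33 in WT and 594 and 876 in MYC-KI. How reads that match both were counted is not given in the sources used here.

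The other enzymes of this step all gave lower estimates in MYC-KI. *Fasn*, fatty acid synthase, stood at 665 and 1255 normalized CPM in WT and at 456 and 543 in MYC-KI, without overlap but with WT replicates that differed more than the nearer pair of samples between genotypes. Its log2 fold change was -0.94 ± 0.33 (SE) with an adjusted p of 0.133 in edgeR and of 0.0128 in DESeq2, which called it lower (background of DESeq2 calls 6.47% lower and 5.62% higher). *Acaca*, the cytosolic acetyl-CoA carboxylase that feeds *Fasn*, stood at 75.4 and 149 in WT and 60.3 and 74.3 in MYC-KI (log2 fold change -0.73 ± 0.35, adjusted p = 0.226 in edgeR). Without WT replicate 2 these estimates were -0.42 for *Fasn* and -0.17 for *Acaca*. *Acly*, ATP citrate lyase, and *Acss2*, acetyl-CoA synthetase, each had a log2 fold change of -0.43 (adjusted p = 0.119 and 0.103 in edgeR), which became -0.25 and -0.26 without WT replicate 2 and -0.60 and -0.59 without WT replicate 1. *Lpin1*, at 21.6 and 28 in WT and 12.9 and 21.2 in MYC-KI, had a log2 fold change of -0.54 (adjusted p = 0.274 in edgeR), with a range from -0.94 without MYC-KI replicate 2 to -0.23 without MYC-KI replicate 1.

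Among the elongases and desaturases, *Elovl5*, an elongase of polyunsaturated chains, had replicates close together, at 41.7 and 40.6 normalized CPM in WT and 56.0 in both MYC-KI samples. It passed the adjusted p (0.0393 in edgeR) and missed the fold threshold, with a log2 fold change of 0.44 ± 0.08 (SE). *Fads2*, the desaturase that opens polyunsaturated fatty acid synthesis, had the largest estimate of the group. It stood at 34.4 and 34.5 in WT and at 63.9 and 42.6 in MYC-KI, so the WT samples were close together and the MYC-KI samples were not. The log2 fold change was 0.63 ± 0.21 (SE) with an adjusted p of 0.123 in edgeR, and it rests on 1 library: without MYC-KI replicate 1 it was 0.31 and not called (adjusted p = 0.160 in edgeR), and without MYC-KI replicate 2 it was 0.89 and called higher (adjusted p = 0.0201). *Scd2*, *Elovl6* and *Fads1* had log2 fold changes of 0.41, 0.31 and 0.24 and were not called by edgeR, and *Fads1* overlapped between the genotypes.

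*Scd1* lies on the minus strand at chr19:44394455-44407879 (GRCm38, GENCODE M21), and its paralogs *Scd3*, *Scd2* and *Scd4* lie beside it within 204.6 kb. The paralogs did not follow it down. *Scd2* stood at 346 and 404 normalized CPM in WT and at 486 and 509 in MYC-KI, with an adjusted p of 0.0854 in edgeR. For *Scd3* there were 1 and 9 counts in WT against 112 and 111 in MYC-KI (log2 fold change 4.06 ± 0.96, adjusted p = 0.0644 in edgeR, called higher by DESeq2), and *Scd4* had 5 and 6 counts against 13 and 40 (adjusted p = 0.146 in edgeR). *Scd3* was thus near the floor in WT and above it in both MYC-KI samples, at counts far below those of *Scd1*. Of the exon sequence of *Scd1*, 4.56% is shared with other genes, most with *Scd3*.

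The 3 genes of the set whose level in WT replicate 2 was at least 1.5 times that in WT replicate 1 were *Scd1*, *Acaca* and *Fasn*, with ratios of 2.39, 1.97 and 1.89. Over all genes tested 7.39% had such a ratio, so 3 of the 34 genes is close to that share. The median ratio over all genes was 1. The summed level of 11 adipocyte markers had a ratio of 2.13 between the same samples. That sum was 277 and 592 normalized CPM in WT and 72.3 and 131 in MYC-KI. The sum mixes genes with different ratios, from 0.967 for *Plin4* and 1.35 for *Lipe* to 4.06 for *Adipoq* and 5.27 for *Retn*, so its closeness to the ratios of *Scd1*, *Acaca* and *Fasn* depends on which markers are in it. Of the 11 markers 10 were tested and 9 lay lower in both MYC-KI samples (90%, background 31.5%). edgeR called 2 of them lower (*Lep* and *Fabp4*, 20%, background 5.08%) with 9 at an unadjusted p under 0.05 (background 34.1%). It called 9 lower without the filter on low counts (background 4.83%), while DESeq2 called 7 lower (background 6.47%). For *Adipoq*, the adiponectin gene, the counts were 461 and 1557 in WT against 0 and 80 in MYC-KI, *Lep* and *Retn* also had 0 counts in MYC-KI replicate 1, and *Ucp1* had 0 counts in all 4 samples. *Thrsp*, a lipogenic gene of fat and liver, went with them at 21.4 and 62.2 normalized CPM in WT and 1.47 and 3.60 in MYC-KI. *Acacb* and *Me1* did not share this pattern within WT, with ratios of 1.04 and 1.17. In MYC-KI (replicate 2 over 1) the ratio was 1.81 for the adipocyte sum, 1.75 for *Scd1*, 1.23 for *Acaca* and 1.19 for *Fasn*. That of *Acacb* in MYC-KI was 1.46. WT replicate 2 is also the sample with the high *Xist* count. Liver genes were high in it too: the counts in WT replicates 1 and 2 were 183 and 12700 for *Alb*, the albumin gene, and 6 and 277 for *Serpina1c*, with 52 and 562 and 5 and 28 in MYC-KI, while *Apoa1* had a WT ratio of 1.07. The part of attached fat, of liver RNA, of sex and of the lower parietal cell markers in the levels of these genes was not tested, and in a piece of tissue fewer cells of a type and less RNA per cell cannot be told apart.

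**Figure D3:**
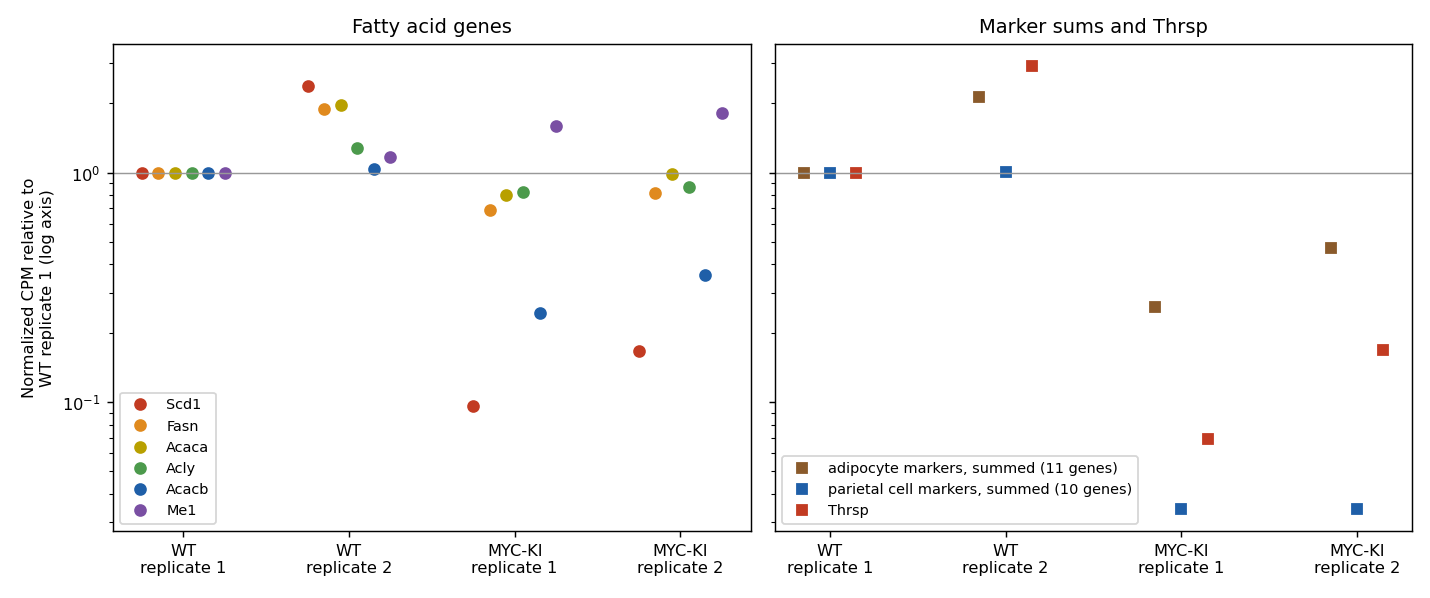
Normalized CPM relative to WT replicate 1 (log axis) in each sample, for 6 fatty acid genes (left) and for *Thrsp* and the summed adipocyte and parietal cell markers (right). *Scd1*, *Fasn*, *Acaca* and the adipocyte sum are higher in WT replicate 2 than in WT replicate 1. *Acacb* and the parietal sum are nearly equal in both WT samples and low in both MYC-KI samples. The ratios of MYC-KI replicate 2 over replicate 1 differ, with 1.81 for the adipocyte sum, 1.75 for *Scd1*, 1.19 for *Fasn* and 1.23 for *Acaca*. That of *Acacb* was 1.46, beside parietal sums of 483 and 485.

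Markers of other cell types moved as well. edgeR called lower 4 of 6 chief cell markers tested (66.7%, background 5.08% for each of these lists). Among them was *Cblif*, which is also on the parietal list and so counts toward both. It called lower 4 of 6 markers on the surface mucous list, where the 2 not called, *Tff2* and *Muc6*, are made by mucous neck and gland cells. Of 7 leukocyte markers tested it called lower 3 (*Adgre1*, *Itgam* and *Csf1r*). The 4 others had log2 fold changes of -0.04 (*Ptprc*), 0.12 (*Cd3e*), -0.28 (*Cd79a*) and -2.87 (*Ms4a1*). Of 10 pancreatic acinar markers 5 were tested and 3 called lower, and the defining *Cpa1*, *Prss2* and *Amy2a5* had 0 counts in every sample. None of 8 squamous and sebaceous markers was called by edgeR (1 at an unadjusted p under 0.05, 1 called higher by DESeq2), with sums of 1909 and 1195 normalized CPM in WT and 817 and 3372 in MYC-KI. The median log2 fold change of this list depended on the library, at 0.89 without MYC-KI replicate 1 and -0.55 without MYC-KI replicate 2. None of 5 hepatocyte markers was called by edgeR either (1 at an unadjusted p under 0.05, 1 called lower by DESeq2), with sums, mostly of *Apoa1* in WT replicate 1, of 1025 and 1644 in WT and 288 and 55.8 in MYC-KI.

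To compare levels between genes, normalized CPM was divided by exon length in kb, which gives a level per kb. Exon length counts every annotated exon of a gene, in any isoform (17074 bp for *Acaca* and 9665 bp for *Lpin1*). Levels and ranks are thus too low for genes whose main transcript is much shorter than that. On this scale *Scd1* ranked first of the 34 genes in WT, at a mean of 153.7 per kb, and 24th in MYC-KI, at 11.9. *Me1* ranked second in WT (122.0) and first in MYC-KI (192.8). *Hmgcs1*, at 99.4 and 93.5, and *Scd2*, at 68.6 and 91.1, followed in MYC-KI, so the more abundant stearoyl-CoA desaturase transcript was *Scd1* in WT and *Scd2* in MYC-KI. *Acacb* went from 16th (19.4) to 31st (5.75), and *Lpin1* was last in both genotypes. The order of *Scd1* and *Me1* in WT does not hold in every sample, since *Scd1* stood at 90.7 and 217 per kb and *Me1* at 113 and 131 in WT replicates 1 and 2. No test was run on levels between genes.

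**Figure D4:**
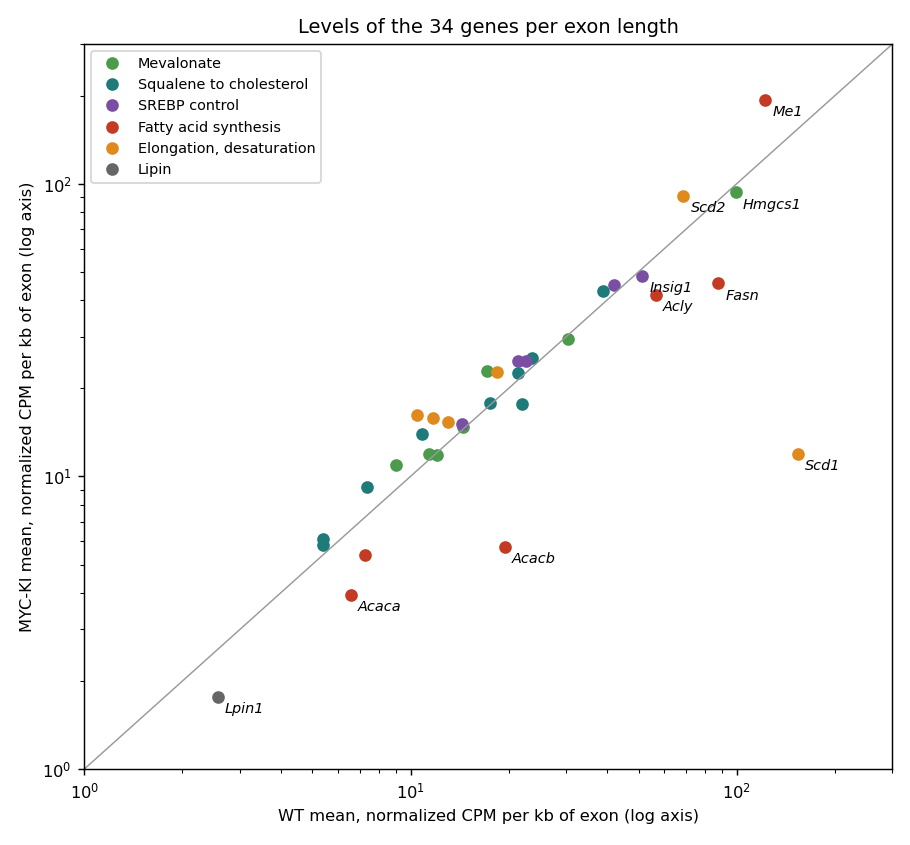
Mean level of each of the 34 genes in WT and MYC-KI, as normalized CPM per kb of exon (both axes log); the line marks equal levels and colours mark pathway steps. *Scd1* and *Acacb* lie far under the line and *Me1* above it, while the sterol genes follow it.

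Over 5 lists of other genes of these pathways, edgeR called 1 of 62 tested genes higher (1.61%, background 5.65%) and 5 lower (8.06%, background 5.08%). Of 9 further sterol synthesis enzymes, edgeR and DESeq2 called none (2 and 1 at an unadjusted p under 0.05), and the median log2 fold change was -0.01. Under scaling by library size alone *Lbr*, a sterol reductase of the nuclear envelope, was called higher by edgeR and the median of the list was 0.21. Of 9 further genes of the SREBP machinery 1 was called higher by edgeR and by DESeq2, *Rnf145*, a ubiquitin ligase of the endoplasmic reticulum linked to sterol sensing. *Rnf145* stood at 32.6 and 30.1 in WT and at 50.4 and 50.7 in MYC-KI (log2 fold change 0.69 ± 0.09, adjusted p = 0.0274 in edgeR), and the median of its list was -0.03.

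Of 15 genes of sterol uptake, storage and export edgeR called 2 lower, and DESeq2 called these and *Soat1*, a cholesterol acyltransferase (log2 fold change -1.26, adjusted p = 0.0601 in edgeR). *Vldlr*, a lipoprotein receptor, stood at 65.9 and 60.3 normalized CPM in WT and at 29.7 and 29.1 in MYC-KI (log2 fold change -1.10 ± 0.09, adjusted p = 0.0175 in edgeR). *Abca1*, the cholesterol exporter, stood at 39.2 and 45.8 against 25.1 and 25.9 (log2 fold change -0.74 ± 0.12, adjusted p = 0.0350 in edgeR). The call of *Abca1* was lost without MYC-KI replicate 1 or 2 (adjusted p = 0.0627 and 0.0517 in edgeR) and, at a log2 fold change of -0.51, under scaling by library size alone. The median of the list was -0.16.

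Of 22 other lipogenic and glycerolipid genes edgeR called 3 lower, with a list median of -0.12, and DESeq2 called these and *Pnpla3* (log2 fold change -2.01, adjusted p = 0.110 in edgeR). *Thrsp* had the lowest fold change (log2 fold change -4.03 ± 0.75, adjusted p = 0.0429 in edgeR). *Acsl1*, a long-chain acyl-CoA synthetase, stood at 146 and 209 normalized CPM in WT and at 65.8 and 70.8 in MYC-KI (log2 fold change -1.38 ± 0.20, adjusted p = 0.0300 in edgeR). *Gpam*, the mitochondrial acyltransferase that starts glycerolipid synthesis, stood at 74.2 and 86.1 against 36.5 and 42.3 (log2 fold change -1.02 ± 0.13, adjusted p = 0.0242 in edgeR). These genes act after fatty acid synthesis or beside it. Without MYC-KI replicate 1 the calls of *Thrsp* (log2 fold change -3.53, adjusted p = 0.0683 in edgeR) and *Acsl1* (-1.33, adjusted p = 0.0522) were lost, and without WT replicate 2 the log2 fold change of *Thrsp* was -3.07. As with the members, no call of these lists held without either WT sample. Of 8 other elongases and desaturases 7 were tested and edgeR called none, with 4 at an unadjusted p under 0.05, while DESeq2 called *Scd3* higher and *Elovl2* lower, and *Elovl3* had 0 counts in every sample.

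**Figure D5:**
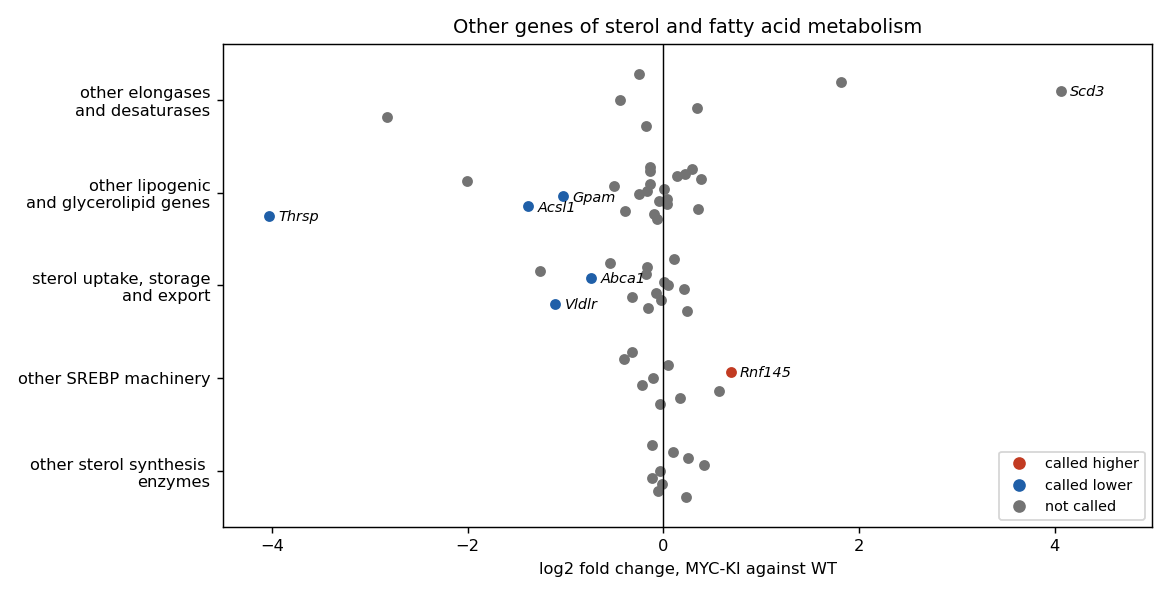
log2 fold change (MYC-KI against WT) of each tested gene in 5 lists of other sterol and fatty acid genes; colours mark genes called by edgeR and names mark those and *Scd3*. Most points lie near 0, 5 genes are called lower and 1 higher.

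The promoters were read for the motifs of the factors that act on these pathways. SREBPs bind sterol response elements, of which TCACNCCAC is a core, and can also bind the E-box CACGTG, the motif of MYC with its partner MAX. NF-Y and SP family factors, which act with SREBPs, bind CCAAT and GGGCGG. In the RefSeq table of the assembly GRCm38.p6, 27 of the 34 genes had a listed start, with 34 promoters in all, and the 250 bases before each start were searched on both strands. TCACNCCAC was found in 1 of the 34 promoters (2.94%, against 1.05% of 32851 promoters of this length), that of *Hmgcs1*. CACGTG was found in 6 (17.6%, against 6.02%), CCAAT in 21 (61.8%, against 33.8%) and GGGCGG in 22 (64.7%, against 32.7%). Genes with several listed starts count more than once, and a match is a description of the letters, not of a bound site.

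The promoter of *Hmgcs1* is shown because it holds the only match to the sterol element core. It covers chr13:119690101-119690350 on the plus strand of GRCm38.p6, with the motifs in capitals: 3 CCAAT boxes, 2 GC boxes and 1 sterol element core, each on either strand.
Hmgcs1: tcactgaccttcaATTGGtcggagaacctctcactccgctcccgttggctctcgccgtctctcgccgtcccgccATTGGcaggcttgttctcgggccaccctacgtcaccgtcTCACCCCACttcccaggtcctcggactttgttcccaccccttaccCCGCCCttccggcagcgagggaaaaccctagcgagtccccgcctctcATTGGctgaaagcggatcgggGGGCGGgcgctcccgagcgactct

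The 6 E-box matches are shown with 12 bases on either side, the E-box in capitals, since CACGTG is the motif that MYC and SREBPs have in common. They lie at chr7:143823223-143823252 (*Dhcr7*, plus strand), chr9:77917192-77917221 (*Elovl5*, plus), chr1:169969331-169969360 (*Hsd17b7*, minus), chr5:28071299-28071328 (*Insig1*, plus), chr9:42264381-42264410 (*Sc5d*, minus) and chr9:110333304-110333333 (*Scap*, plus).
Dhcr7: cgctgtgatgaaCACGTGgcaaaaagcagc
Elovl5: actgccccgagaCACGTGaaccacaggaga
Hsd17b7: ggacccttgtgtCACGTGgctccgcccctc
Insig1: gctgggtgaggtCACGTGgctccggtggca
Sc5d: ctacgcggcgacCACGTGaccgccgcgacc
Scap: cgccgccgggagCACGTGtggagggcggcg

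The genes with an E-box did not move together: the log2 fold changes were 0.44 for *Elovl5*, 0.31 for *Dhcr7*, 0.21 for *Scap* and 0.18 for *Hsd17b7*, against -0.08 for *Insig1* and -0.32 for *Sc5d*, and none of them was called. None of the promoters searched for *Me1* or *Acacb* held CACGTG or TCACNCCAC in this window, and *Scd1* had no entry in the table.

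For some genes reads could be shared with a near-identical copy or with a gene that overlaps them. Besides *Me1*, over 10% of the exon sequence is shared for *Acat2* (39.1%, most with *Acat3*), *Acaca* (30.4%, *Gm5182*), *Fdft1* (26.5%, *Ctsb*), *Fdps* (26.2%, *Gm43738*), *Idi1* (25.3%, *Gm13502*) and *Hmgcs1* (11.6%, *Gm48342*), and their values are uncertain to that extent. Of these partners, *Ctsb* and *Gm48342* overlap their gene on the opposite strand and *Gm43738* on the same strand. For *Gm5182* the counts were 358 and 613 in WT against 296 and 431 in MYC-KI, *Acat3* had 48 to 77 counts in the 4 samples, and the strand setting of the counting is not given in the sources used here. *Acacb*, *Elovl5* and *Lpin1* shared no such word with another gene.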

How the data were processed

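The authors deposited 1 table of raw gene counts from bulk RNA sequencing of stomach, with 46095 gene symbols and 1 column per sample, not normalized. The submitters' processing notes name HISAT2 and mm10, and the counting tool and its settings are not given in the sources used here. The counts of both MYC-KI columns were assigned in row order to the names sorted by character code, using no count value. All rows then went into edgeR 4.0.16 under R 4.3.3 (scaling by TMM, filterByExpr, glmQLFit, glmQLFTest, Benjamini-Hochberg adjustment over 17643 genes, no covariates), with the thresholds of the study's methods (adjusted p under 0.05, fold change above 1.5 in either direction). Normalized CPM uses TMM-scaled library sizes. The intervals are 95% intervals from the same fit, and each SE was obtained from the size of the log2 fold change and its F statistic. Totals were 30260305 to 41463647 counts per sample, so replicate spread rather than depth limits the precision: a common dispersion of 0.295 (as its square root) was estimated. Replicates differed by more than sampling noise (chi-square per degree of freedom 22.7 in WT and 74.9 in MYC-KI).

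The members and all lists (5 of other pathway genes, 8 of cell type markers and 1 of sex-linked genes) were chosen with earlier results of these data known. Named genes were the called members, the SREBP control genes, the largest and smallest fold change of each pathway step and the called genes of the pathway lists. *Elovl5*, *Fasn*, *Acaca*, *Idi1*, *Dhcr7*, *Sqle*, *Acly*, *Acss2*, *Scd3*, *Scd4*, *Elovl2*, *Lbr*, *Soat1* and *Pnpla3* were added after their values were seen. Exon lengths, positions and shared 50-base words came from GENCODE M21 (GRCm38). *Erg28* and *Cblif* were found under older names. The alternatives were the table as deposited, DESeq2 1.42.0, other scalings and filters, replicate number or sex as a term, other fold thresholds and leaving out each sample. The script was tested on simulated data. Some single-gene results are not reported here.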

Additional observations from a re-analysis of the deposited data

How the results depend on the processing

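Across the alternatives, *Scd1*, *Acacb*, *Me1*, *Fasn*, *Acaca*, *Acly* and *Acss2* kept their direction, apart from the table as deposited, where names and MYC-KI counts are out of register: there 4 of the 34 genes were called higher and 22 lower, the median log2 fold change was -1.94, and 14 genes changed sign (*Acat2* -13.30, *Pmvk* -1.95, *Idi1* -13.08, *Sqle* -4.70, *Lss* -10.91, *Msmo1* -0.68, *Hsd17b7* -10.67, *Srebf2* -3.10, *Scap* -2.82, *Stard4* -14.42, *Me1* -8.22, *Scd2* -1.74, *Fads1* -0.18 and *Lpin1* 0.42). Scaling by library size alone moved the median of all genes tested to 0.23, where it called 12.9% higher and 4.19% lower. It called 5 members higher (*Mvd*, *Nsdhl*, *Me1*, *Elovl5* and *Scd2*), put their median at 0.31, and turned *Hmgcs1* (0.13), *Mvk* (0.19), *Fdps* (0.18) and *Insig1* (0.15). DESeq2 called 1 member higher and 3 lower, with *Fasn* added. Without a fold threshold 2 were higher, and above an absolute log2 fold change of 1 none was.

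With the replicate number as a term (replicate block) 0 members were called higher and 1 lower (*Scd1*), while *Me1* (adjusted p = 0.0711) and *Acacb* (adjusted p = 0.0541, both edgeR) were no longer called. Of the 6 called pathway genes that are not members, the replicate block kept *Thrsp* alone. Over all genes it called 27 higher and 87 lower. Deviations of same-numbered samples correlated at r = 0.067 across genes. The sources used here do not say whether the numbers mark a shared batch, and this r cannot settle it. With sex as a covariate, which leaves WT replicate 1 as the only WT sample that bears on the genotype, edgeR called 0 members and 0 genes of the whole table (6 members at an unadjusted p under 0.05), and *Acat2* (-0.034), *Mvk* (0.039), *Msmo1* (-0.0072) and *Insig1* (0.022) changed sign. Leaving out 1 sample at a time gave 0 to 1 members higher and 0 to 2 lower, and a median of 0.05 to 0.09. Without WT replicate 1 or 2 no gene of the table was called by edgeR (9 and 6 members at an unadjusted p under 0.05). Members that changed sign in these fits had these ranges: *Pmvk* (-0.038 to 0.18), *Acat2* (-0.037 to 0.091), *Mvk* (-0.19 to 0.11), *Msmo1* (-0.010 to 0.054), *Insig1* (-0.22 to 0.053), *Fdps* (-0.11 to 0.030) and *Fads1* (-0.0012 to 0.44). The cause of these changes was not tested.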
